A study of Mus musculus with 3 samples.

Results

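Cxcl12 and the chemokines and receptors that guide cells through lymphoid tissue were followed across the cell classes of mouse inguinal white fat. The genes were chosen by symbol. They are the ligands Cxcl12, Cxcl13, Ccl21a, Ccl19 and Cxcl14, the receptors Cxcr4, Cxcr5 and Ccr7, and the scavenging receptor Ackr3, which makes 9 of the 28692 genes in the deposited tables. They were read in barcodes with at least 500 detected genes and at most 15% mitochondrial UMIs (unique molecular identifiers, which count RNA molecules), by cell class and library. The rule used no level of the genes themselves.

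Single-cell 10x Chromium libraries (3' chemistry, v3) were made from C57BL/6 mice, from the stromal vascular fraction of inguinal white fat (what is left of fat without its mature adipocytes). Mice were kept at 4 C for 3 days (cold), were given CL 316,243 (CL, a selective β3-adrenergic agonist) at 1 mg/kg by intraperitoneal injection for 3 days, or received saline. Each of the 3 groups has 1 library, so no difference has a replicate check and no test was run. The study asked how cold and β3-adrenergic agonism shift the cells of white fat as it becomes beige.

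Cxcl12 signals through Cxcr4 and holds haematopoietic cells and B cell precursors in the bone marrow, where stromal cells and vessels make it. Ackr3 takes Cxcl12 up and degrades it, which shapes the gradient that Cxcr4 cells meet. Cxcl13 draws Cxcr5-bearing B cells into follicles, and Ccl21 and Ccl19 draw Ccr7-bearing T cells and mature dendritic cells into lymphoid tissue. Cxcl14 is a homeostatic chemokine of epithelial and stromal cells. Inguinal fat surrounds a lymph node, and the sources used here do not give whether it was taken out.

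After the filters and the removal of called doublets, there were 3858 cold, 6641 CL and 6185 saline cells. A median cell held 3623 UMIs in cold, 3837 UMIs in CL and 3210 UMIs in saline. The deposited libraries hold 19899223 UMIs (cold), 29323106 UMIs (CL) and 25875379 UMIs (saline). Clusters were made without the 9 genes and the other chemokine and receptor genes, and were named from marker genes, as in "B cell-like". The makeup of the libraries differed: B cell-like cells were 36.1% of cold, 3.43% of CL and 24.7% of saline cells, and monocyte/macrophage-like cells were 5.78%, 52.0% and 16.8%. Stem and progenitor cells of the adipose lineage (ASPC-like) were 15.6% of cold, 16.2% of CL and 19.9% of saline cells. Endothelial-like cells were 6.56%, 3.92% and 5.42%. Between 4 and 9 cell barcodes were shared by each pair of libraries.

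The promoters of 3 of the ligands are shown because their RNA was highest in different stromal classes or was higher with CL. They are the 250 bases before the transcription start as RefSeq gives them on GRCm38.p6, read 5′ to 3′ on the strand of the gene, for Cxcl12 at chr6:117168285-117168534 (plus), Cxcl13 at chr5:95956689-95956938 (plus) and Ccl19 at chr4:42756366-42756615 (minus). Capitals mark the GC box (GGGCGG) or the TATA box (TATAAA), both searched on both strands.
Cxcl12: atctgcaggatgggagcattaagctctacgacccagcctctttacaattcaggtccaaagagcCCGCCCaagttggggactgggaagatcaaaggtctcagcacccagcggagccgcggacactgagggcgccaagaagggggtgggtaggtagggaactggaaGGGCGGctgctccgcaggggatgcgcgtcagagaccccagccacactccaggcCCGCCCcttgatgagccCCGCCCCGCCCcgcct
Cxcl13: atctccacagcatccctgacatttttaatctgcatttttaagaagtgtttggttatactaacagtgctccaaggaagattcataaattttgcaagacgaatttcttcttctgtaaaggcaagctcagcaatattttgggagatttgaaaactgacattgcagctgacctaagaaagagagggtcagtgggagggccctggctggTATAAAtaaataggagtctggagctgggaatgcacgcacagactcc
Ccl19: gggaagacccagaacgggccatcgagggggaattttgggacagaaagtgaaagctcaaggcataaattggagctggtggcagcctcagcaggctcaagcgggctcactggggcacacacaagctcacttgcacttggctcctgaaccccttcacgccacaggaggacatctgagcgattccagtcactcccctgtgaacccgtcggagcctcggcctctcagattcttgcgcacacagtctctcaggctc
The Cxcl12 window holds 5 GC boxes, the last 2 of which overlap, and has a GC content of 64.4%. The Cxcl13 window holds 1 TATA box that starts 46 bases before the start, and has a GC content of 42%. The Ccl19 window holds no match to either motif. GENCODE starts this gene at 42756577, upstream of the RefSeq start, so most of the Ccl19 window lies inside the GENCODE gene. Among 32851 promoter windows of the same length, 32.7% hold the GC box and 12.4% the TATA box, and the median GC content is 52.4%. The kappa B motif was in none of the 7 windows found for these genes, and 7.25% of all windows hold it. A match is a string of letters and says nothing of binding.

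The levels below are CPM, a gene's UMIs per 1000000 UMIs of all the cells of a class and library. Differences between libraries are log2 ratios of CPM. Intervals are 95% and cover counting error only, not differences between animals. A ratio counts as past the fold where it is 1 or more in size on the log2 scale, with at least 20 UMIs of the gene in the libraries compared and at least 50 cells of the class in each.

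**Figure D1:**
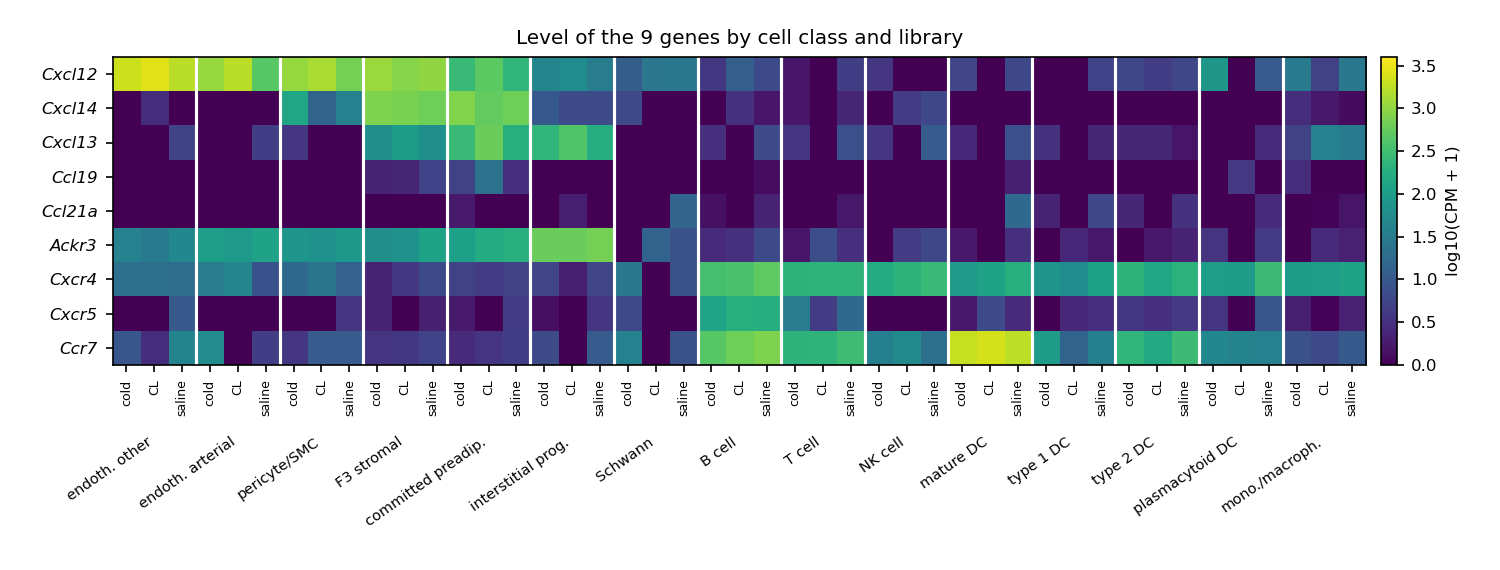
Heat map of the level of the 9 genes, as log10(CPM + 1), in 15 cell classes (across) of the cold, CL and saline libraries. Cxcl12, Ackr3, Cxcl13 and Cxcl14 were highest in ASPC-like, endothelial-like or pericyte-like cells, and Cxcr4, Cxcr5 and Ccr7 in immune classes.

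Over the 12 classes with enough cells in every library, 42 ratios of cold over saline could be measured for the 9 genes, and 3 were past the fold higher in cold and 8 lower. Those are 7.14% and 19% of the ratios, against 3.83% higher and 3.47% lower over all genes in the same classes. For CL over saline, 5 of 39 ratios were past the fold higher in CL and 8 lower, against 4.88% higher and 5.7% lower over all genes. For CL over cold, 3 of 38 were past the fold higher in CL and 4 lower, against 5.06% and 6.04% over all genes. Of the ratios past the fold, 3 of cold over saline and 5 of CL over saline had under 20 CPM in both libraries. The median ratio of these genes was -0.28 for cold over saline, -0.26 for CL over saline and 0.04 for CL over cold. With called doublets kept, 18 ratios of cold over saline and 20 of CL over saline were past the fold, in place of 11 and 13.

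Cxcl12 (chr6:117168535-117181367, plus strand, mm10) was a gene of vessels, pericytes and adipogenic stroma in all 3 libraries. In endothelial-like cells outside the arterial-like, venous-like and lymphatic-like clusters it reached 2104 CPM in cold (2000.3 to 2211), 2754 CPM in CL (2613 to 2900.4) and 1714 CPM in saline (1594 to 1841). Pericyte-like cells (a class that may hold smooth muscle cells) held 1077 CPM in cold, 1406 CPM in CL and 713 CPM in saline. F3-marked stromal-like cells, an ASPC-like subclass, held 1129 CPM in cold, 889 CPM in CL and 1020.2 CPM in saline. Saline had the lowest level in the endothelial-like and pericyte-like classes, and the F3-marked cells did not follow that order. Over all cells Cxcl12 was at 195 CPM in cold, 158 CPM in CL and 128 CPM in saline.

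Within the vessels, arterial-like cells held 1099.8 CPM of Cxcl12 in cold, 1668 CPM in CL and 468 CPM in saline. Venous-like cells held 124 CPM in cold, 229.6 CPM in CL and 286 CPM in saline, and lymphatic-like cells held 42.6, 186 and 54.3 CPM. These classes hold few cells: 36 cold, 33 CL and 73 saline arterial-like, 14, 6 and 34 venous-like, and 12, 2 and 39 lymphatic-like cells. A subcluster led by Plvap, Col13a1 and Esm1 had the highest level of Cxcl12, with 3064 CPM in cold, 5362 CPM in CL and 3129 CPM in saline. A subcluster led by Fabp4 and Gpihbp1 against all cells, with Ucp1 and Lpl among its leading genes within the vessels, held 1624 CPM in cold, 2325 CPM in CL and 1076 CPM in saline.

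Over all endothelial-like cells Cxcl12 was higher in CL than in saline, 2500.3 against 899.7 CPM, a log2 ratio of 1.47 (1.36 to 1.59). The cold over saline ratio was 0.92 (0.81 to 1.04), from 1706 CPM in cold. In this class 3.56% of all genes were past the fold higher in cold over saline and 6.07% lower, and 3.24% of all genes were past the fold higher in CL over saline and 8.73% lower. The arterial-like, venous-like and lymphatic-like cells, which hold less Cxcl12, were a larger share of the saline vessels. In the endothelial-like cells outside these clusters the ratios were 0.68 (0.56 to 0.81) for CL over saline and 0.30 (0.17 to 0.42) for cold over saline. Within the subcluster with Ucp1 and Lpl among its leading genes the ratios were 1.11 for CL over saline and 0.59 for cold over saline. The largest subcluster had Cxcl9, Irf7 and Ifit2 among its leading genes within the vessels. Against all cells Gpihbp1 and Fabp4 led it too, and it was the one that passed the capillary markers. It held 2019 CPM in cold, 2033 CPM in CL and 993 CPM in saline, a ratio of 1.02 for cold and 1.03 for CL over saline. The cold over saline ratio outside the arterial-like, venous-like and lymphatic-like clusters thus depended on which cells were read. It was 0.085 in cells with at least 1000 detected genes. Endothelial-like cells with a Cxcl12 UMI were 78.7% in cold, 82.7% in CL and 60.6% in saline, and 60.8%, 75.4% and 47.1% once each cell was thinned to 1000 UMIs. B cell-like cells, which should lack it, had a Cxcl12 UMI in 0.861% of cold, 2.19% of CL and 1.05% of saline cells. Median depths were 3111 UMIs in cold, 2039.5 UMIs in CL and 2439 UMIs in saline endothelial-like cells, and 2524.5, 1599.5 and 1709.5 UMIs in B cell-like cells.

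**Figure D2:**
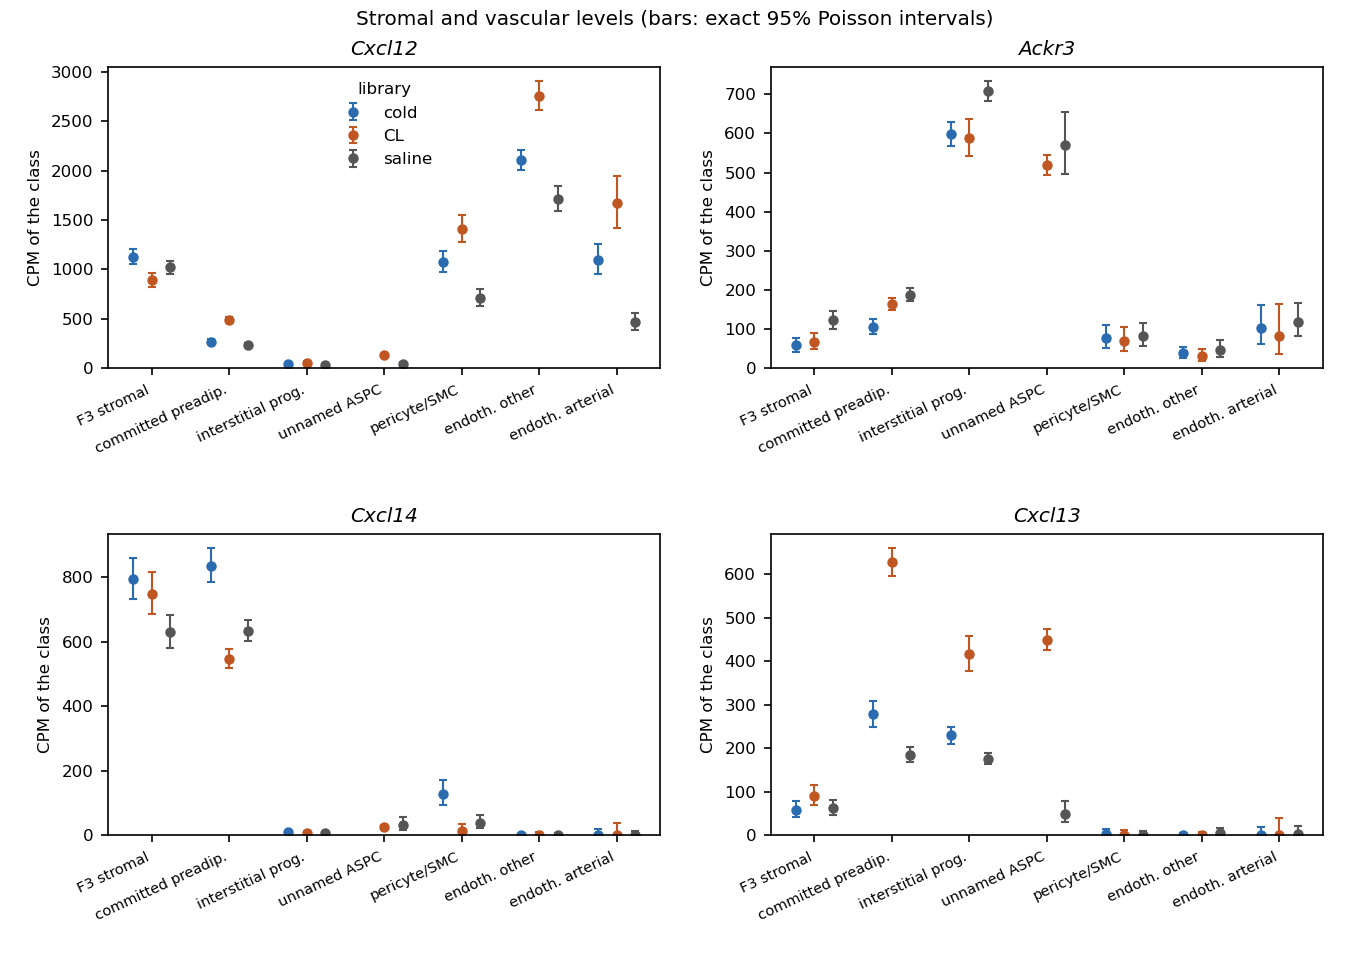
Levels of Cxcl12, Ackr3, Cxcl14 and Cxcl13 (CPM) in 7 stromal and vascular classes of the cold, CL and saline libraries, with 1 library per group. Bars are 95% Poisson intervals of the summed UMIs, which cover counting error only. Cxcl12 was highest in endothelial-like cells outside the arterial-like, venous-like and lymphatic-like clusters, and Ackr3 in interstitial progenitor-like cells.

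Among the ASPC-like cells Cxcl12 was graded by subclass. Committed preadipocyte-like cells held 270.3 CPM in cold (242 to 301), 494 CPM in CL (466 to 522) and 237 CPM in saline (218 to 257). Interstitial progenitor-like cells, marked by Dpp4, held 42.4 CPM in cold, 55.04 CPM in CL and 33.0 CPM in saline. The CL over saline ratio was 1.06 (0.92 to 1.21) in the committed preadipocyte-like cells, 0.74 in the interstitial progenitor-like cells and -0.20 in the F3-marked cells. In the committed cells it was 0.36 and 0.28 when clusters were made at a coarser and a finer resolution, so its size rests on how the subclass is drawn. The finer resolution set apart an unnamed ASPC-like cluster led by Cxcl9, Mmp3 and Iigp1, with 2 cold, 245 CL and 15 saline cells. The committed cluster then held 97 CL cells, in place of 335. The part of that nearly CL-only cluster in the ratio was not tested. In the same cells the cold over saline ratio was 0.19 (-0.01 to 0.39).

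Over all ASPC-like cells Cxcl12 was at 295 CPM in cold, 318 CPM in CL and 215 CPM in saline. The ratios were 0.46 (0.35 to 0.57) for cold over saline and 0.57 (0.48 to 0.66) for CL over saline. An unnamed ASPC-like cluster led by Lcn2, Cxcl5 and Isg15 held 0 cold, 444 CL and 47 saline cells, at 134 CPM of Cxcl12 in CL and 41.2 CPM in saline. Without that cluster the ASPC-like ratio was 1.02 for CL over saline and 0.40 for cold over saline. The mix of the other ASPC-like cells differed too: interstitial progenitor-like cells, low in Cxcl12, were 54.8% of them in cold, 30.2% in CL and 55.7% in saline, and committed preadipocyte-like cells were 27.5%, 52.8% and 31.2%. The pooled ratio thus holds a difference in makeup as well as the differences within subclasses. Endothelial-like cells held 49.6% of the Cxcl12 UMIs in cold, 36.4% in CL and 30.5% in saline. ASPC-like cells held 36.4%, 52.1% and 54.9%.

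Monocyte/macrophage-like cells had little Cxcl12, with 29.3 CPM in cold, 4.12 CPM in CL and 26.9 CPM in saline, a CL over saline ratio of -2.71. The makeup of this class differed between the libraries, since 3 of its clusters held 1409, 1034 and 889 CL cells, against 176, 184 and 52 saline cells and 7, 17 and 0 cold cells. In the cluster of the class that all 3 libraries filled, the levels were 34.3 CPM in cold, 30.7 CPM in CL and 44.2 CPM in saline, and the CL over saline ratio was -0.53 (-1.45 to 0.30). In cold plasmacytoid dendritic-like cells 31 of 32 Cxcl12 UMIs lay in 1 cell.

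Cxcl14 (chr13:56288643-56296551, minus strand) was held by the ASPC-like cells, with 96.9% of its UMIs in cold, 99.1% in CL and 99.04% in saline. F3-marked cells held 795 CPM in cold, 748 CPM in CL and 631 CPM in saline, and committed preadipocyte-like cells held 836, 546 and 634 CPM. Interstitial progenitor-like cells held 8.73 CPM in cold, 5.9 CPM in CL and 5.62 CPM in saline. None of these 3 subclasses had a Cxcl14 ratio past the fold in the 3 comparisons. In all ASPC-like cells the ratios were 0.43 for cold over saline, -0.04 for CL over saline and -0.48 for CL over cold. Without the unnamed cluster they were 0.37, 0.63 and 0.26, so the sign of CL over cold turned, and the committed preadipocyte-like cells, high in Cxcl14, were then a larger share of the CL cells. In F3-marked cells Cxcl12 and Cxcl14 were found in the same cell in 64.2% of cold, 65.7% of CL and 56.1% of saline cells.

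Cxcl13 (chr5:95956951-95961068, plus strand) was the ligand with the largest CL over saline ratio in the ASPC-like cells among those with over 100 UMIs there. The level was 213 CPM in cold, 469 CPM in CL and 159 CPM in saline, and the CL level stood well above the others. The ratio was 1.56 (1.47 to 1.66) for CL over saline, 0.42 (0.30 to 0.55) for cold over saline and 1.14 for CL over cold. Of all genes measured in these cells 5.67% were past the fold higher in CL over saline and 2.52% lower. Committed preadipocyte-like cells held 278 CPM in cold, 627 CPM in CL and 184 CPM in saline. Interstitial progenitor-like cells held 229.5, 416 and 175 CPM. The unnamed CL cluster held 449.8 CPM in CL and 49.5 CPM in saline, and without it the ASPC-like ratio was again 1.56. F3-marked cells were lower, at 58.8 CPM in cold, 91.2 CPM in CL and 62.1 CPM in saline.

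Few cells carried most of it. In the ASPC-like cells 50% of the Cxcl13 UMIs lay in 20 cold, 52 CL and 37 saline cells, and the highest cell held 64, 262 and 52 UMIs. A Cxcl13 UMI was found in 26.5% of cold, 41.6% of CL and 23.5% of saline ASPC-like cells, and in 11.8%, 19.8% and 8.55% after thinning to 1000 UMIs. In B cell-like cells the shares were 0.574%, 0% and 1.18%. Barcodes with at least 10 Cxcl13 UMIs numbered 8 in cold, 40 in CL and 11 in saline among the committed preadipocyte-like cells, and 16, 13 and 21 among the interstitial progenitor-like cells. The unnamed ASPC-like cluster held 46 such barcodes in CL and 0 in saline. In committed preadipocyte-like cells the ratio was 1.77 (1.61 to 1.92) for CL over saline and 0.59 for cold over saline. At the finer cluster resolution, which set apart the nearly CL-only cluster led by Cxcl9, the CL over saline ratio was 0.90.

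**Figure D3:**
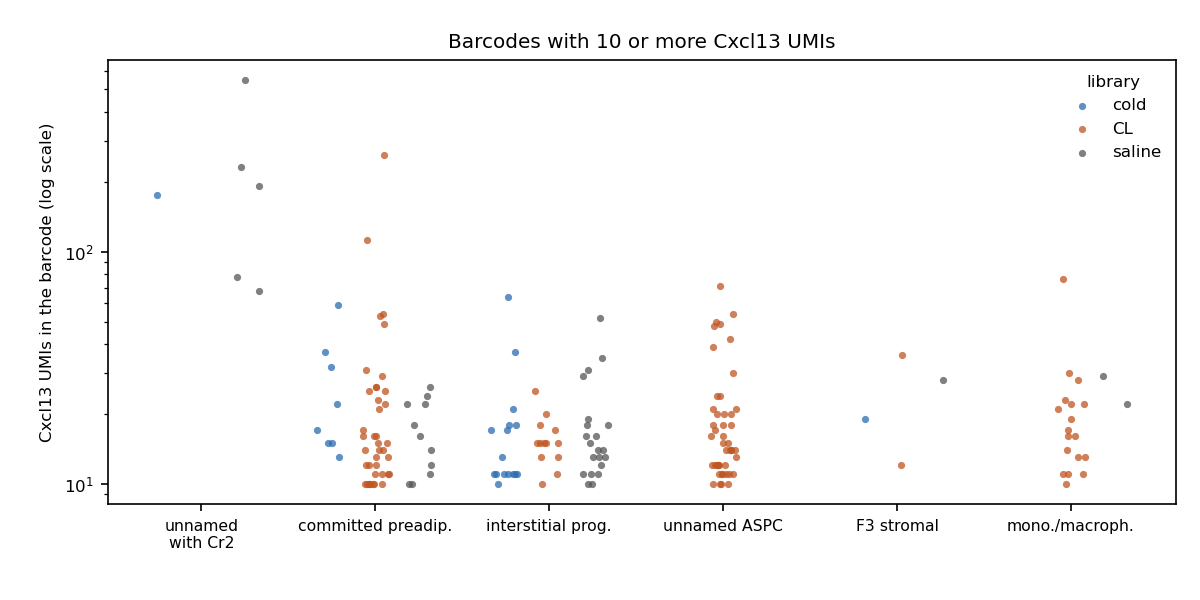
Barcodes with at least 10 Cxcl13 UMIs, by cell class and library, with the UMIs of each barcode on a log axis. Each point is 1 barcode. The highest is a saline barcode with 548 UMIs in a subcluster whose barcodes with a Cr2 UMI numbered 1 in cold, 0 in CL and 5 in saline.

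A small unnamed subcluster led by Clu, Cxcl13, Sfrp5, Mfge8 and Cr2 held 6 cold, 4 CL and 19 saline barcodes. Cr2, the complement receptor CD21, is known on B cells and follicular dendritic cells, and Mfge8 and Clu are made by follicular dendritic cells too. Against all cells, the best marker set of the whole subcluster was that of pericytes and smooth muscle cells, with 5 markers passing. The identity of the subcluster was not tested. The barcodes of that subcluster with a Cr2 UMI were 1 in cold, 0 in CL and 5 in saline. The 5 saline barcodes held 548, 232, 191, 78 and 68 Cxcl13 UMIs, which was 44.2% of the Cxcl13 UMIs of that library, and the cold barcode held 175 UMIs, or 15.3%. The vessel genes Pecam1 and Cdh5 had 0 UMIs in these barcodes, and so did Pdpn. Madcam1 had 1 UMI over all of them, in the saline barcode with 548 Cxcl13 UMIs. Over all cells Cxcl13 was at 62.7 CPM in cold, 139 CPM in CL and 106 CPM in saline, and without these barcodes at 53.1 CPM in cold, 139 CPM in CL and 59.0 CPM in saline. The CL over saline ratio over all cells was 0.40 with them and 1.24 (1.15 to 1.33) without them. The cold over saline ratio was -0.75 with them and -0.15 (-0.27 to -0.03) without them.

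In monocyte/macrophage-like cells Cxcl13 was at 3.91 CPM in cold, 36.1 CPM in CL and 29.2 CPM in saline. Barcodes with at least 10 UMIs were 0 in cold, 18 in CL and 2 in saline, and the 18 CL barcodes held 373 of the 482 UMIs of their class. C1qa was found in all 18, but it is one of the markers that named this class and so is no separate support. The stromal gene Dcn was found in 2 of them with at most 1 UMI. The cold over saline ratio of the class was -2.90. The CL over saline ratio was 0.31, and 1.08 without the 3 cells that held most Cxcl13 in each library.

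Ccl21a (chr4:42772860-42773993, minus strand) rested on few barcodes. The gene had 81 UMIs in cold, 3 UMIs in CL and 133 UMIs in saline, and 4 barcodes held 158 of these 217 UMIs. The cold barcode with 75 UMIs belongs to the subcluster led by Clu and Cxcl13, and it also held 11 Ccl19, 73 Clu, 22 Mfge8 and 5 Bst1 UMIs and 0 Cr2 UMIs. The other 3 barcodes were saline lymphatic-like cells with 39, 32 and 12 UMIs. Those 3 were the positive cells of 39 saline lymphatic-like cells, a class at 410 CPM. The 12 cold and 2 CL lymphatic-like cells held 0 UMIs, which by counting alone (3 counts per library) allows up to 63.9 CPM in cold and 558 CPM in CL. With so few lymphatic-like cells in cold and CL, and the saline UMIs in 3 cells, no fold was computed for them and no difference between the libraries was detectable. Saline mature dendritic-like cells held 29 UMIs, with at most 4 in a cell, and the 245 cold and 133 CL cells held 0 UMIs. With those zeros raised to 3 counts, this class was past the fold lower in both ratios to saline, which are among those counted above. Ccl21a and Ccl19 have near-identical copies in the mouse genome that can split or drop reads, so these levels are uncertain.

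Ccl19 (chr4:42754525-42756577, minus strand) was low throughout, with 19 UMIs in cold, 64 UMIs in CL and 12 UMIs in saline. Committed preadipocyte-like cells held 5 UMIs in cold, 51 UMIs in CL and 5 UMIs in saline, or 4.13, 21.2 and 2.06 CPM. The CL over saline ratio was 3.36 (2.05 to 5.05) and the CL over cold ratio 2.36 (1.04 to 4.04). In CL 45 of these cells, 13.4%, had a Ccl19 UMI, with at most 2 UMIs in a cell, against 3.03% in cold and 1.35% in saline. B cell-like cells held 0 Ccl19 UMIs in cold and CL and 1 UMI in saline.

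Ackr3 (chr1:90203980-90216751, plus strand), the receptor that removes Cxcl12, was highest where Cxcl12 was low among the ASPC-like subclasses. Interstitial progenitor-like cells held 598 CPM in cold, 589 CPM in CL and 707 CPM in saline. Committed preadipocyte-like cells held 107, 164 and 188 CPM, and F3-marked cells held 58.8, 68.4 and 123 CPM. Saline had the highest level in each of these classes. In the F3-marked cells the ratio was -1.07 (-1.60 to -0.56) for cold over saline and -0.85 for CL over saline. In all ASPC-like cells the ratios were -0.35 for cold over saline and -0.36 for CL over saline, and without the unnamed cluster -0.34 and -0.88. The last value is further from 0 than the CL over saline ratios within the subclasses. Those were -0.26 in interstitial progenitor-like, -0.20 in committed preadipocyte-like and -0.85 in F3-marked cells. Under the alternatives they ran from -0.36 to -0.23, from -0.89 to -0.12 and from -1.06 to -0.37, so this order depends on the setting. The interstitial progenitor-like cells, high in Ackr3, were the smaller share of the CL cells.

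An Ackr3 UMI was found in 95.4% of cold, 88.5% of CL and 94.4% of saline interstitial progenitor-like cells, and in 44.4%, 40.3% and 48.9% after thinning. B cell-like cells had one in 0.574% of cold, 0.439% of CL and 1.05% of saline cells. Endothelial-like cells held 63.1 CPM in cold, 37.7 CPM in CL and 112 CPM in saline, with ratios of -0.83 for cold over saline and -1.57 (-2.27 to -0.93) for CL over saline. Of the vessels, arterial-like cells held 103 CPM in cold, 83.9 CPM in CL and 119 CPM in saline, and lymphatic-like cells held 277, 0 and 242 CPM. The vessels outside these clusters held 38.1, 30.9 and 47.6 CPM, so the share of arterial-like and lymphatic-like cells moved with the endothelial-like level, and its part in the result was not tested. In interstitial progenitor-like cells Cxcl12 and Ackr3 were found in the same cell in 22.2% of cold, 15.6% of CL and 15.5% of saline cells.

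**Figure D4:**
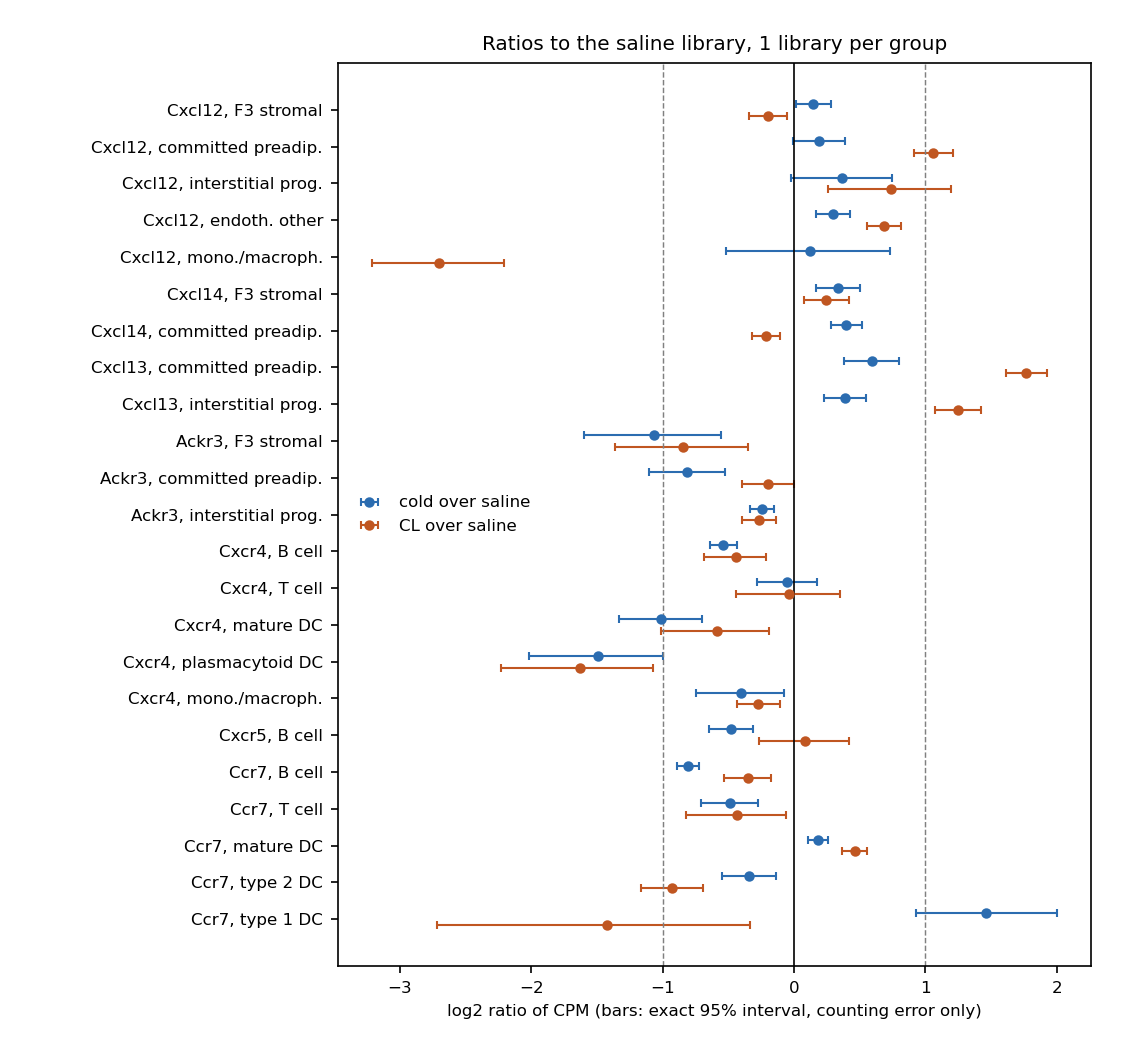
Log2 ratios of CPM for 23 pairs of a gene and a cell class, cold over saline and CL over saline, with exact 95% intervals that cover counting error only. Dashed lines mark a log2 ratio of 1 in size. Cxcl13 in committed preadipocyte-like cells was at 0.59 for cold and 1.77 for CL, and Cxcr4 in plasmacytoid dendritic-like cells at -1.49 for cold and -1.63 for CL.

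Cxcr4 (chr1:128588199-128592293, minus strand), the signalling receptor of Cxcl12, was found across the immune classes. B cell-like cells held 349 CPM in cold, 372 CPM in CL and 506 CPM in saline, and T cell-like cells held 213, 216 and 221 CPM. An unnamed cluster marked by Chil3 and Hp held 483 CPM in cold, 201 CPM in CL and 408 CPM in saline. Neutrophil-like cells held 409.8 CPM in cold, 548 CPM in CL and 249 CPM in saline. That class had 28 cold, 26 CL and 3 saline cells, with 4022 UMIs of all genes in saline. These are too few cells for a ratio, and the saline level is unreliable. ASPC-like cells were at 3.88, 3.35 and 4.73 CPM. The B cell-like ratio was -0.54 (-0.64 to -0.44) for cold over saline and -0.44 (-0.69 to -0.21) for CL over saline, and the T cell-like ratios were -0.05 and -0.04. The B cell-like class held a cluster led by cell cycle genes such as Mki67 and Top2a, with 17.3% of its UMIs in cold, 4.13% in CL and 4.54% in saline. Within the other 2 B cell-like clusters the Cxcr4 ratios were -0.56 and -0.36 for cold over saline and -0.43 and -0.58 for CL over saline.

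Among the named immune classes the lowest Cxcr4 ratios against saline were in dendritic-like cells. Plasmacytoid dendritic-like cells held 103 CPM in cold, 93.6 CPM in CL and 289 CPM in saline, with ratios of -1.49 (-2.02 to -1.002) for cold and -1.63 (-2.23 to -1.07) for CL. Mature dendritic-like cells held 88.2 CPM in cold, 118 CPM in CL and 178 CPM in saline, and the cold over saline ratio was -1.01 (-1.34 to -0.70). Type 1 dendritic-like cells held 75.3, 54.8 and 110.4 CPM, with a CL over saline ratio of -1.01 (-1.59 to -0.47). Type 2 dendritic-like cells did not follow in cold, at 211 CPM against 202 CPM in saline, but were lower in CL, at 144 CPM. After thinning to 1000 UMIs a Cxcr4 UMI was found in 6.25% of cold, 7.37% of CL and 21.1% of saline plasmacytoid dendritic-like cells, against 0.667%, 0.373% and 0.326% of ASPC-like cells.

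Cxcr5 (chr9:44511787-44561877, minus strand), the receptor of Cxcl13, was a B cell gene here: B cell-like cells held 87.9% of its UMIs in cold, 87.4% in CL and 83.1% in saline. Their level was 126 CPM in cold, 187 CPM in CL and 176 CPM in saline. The ratio was -0.48 (-0.65 to -0.31) for cold over saline and 0.08 for CL over saline. Within the 2 B cell-like clusters without the cell cycle genes the cold over saline ratios were -0.39 and -0.53. T cell-like cells held 32.6 CPM in cold, 3.22 CPM in CL and 16.1 CPM in saline, with a cold over saline ratio of 1.02 (0.26 to 1.81). A T cell-like cluster with Ctla4, Ikzf2 and Mki67 among its leading genes held 52.1% of the class UMIs in cold, 51.5% in CL and 28.5% in saline. The Cxcr5 ratio was 0.063 (-1.09 to 1.31) within that cluster and 1.66 (0.64 to 2.77) within the other, on 40 UMIs. Over all cells Cxcr5 was at 36.8 CPM in cold, 3.44 CPM in CL and 27.6 CPM in saline. In those totals the CL library, with the smallest share of B cell-like cells, was the lowest, while its B cell-like level was not.

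Ccr7 (chr11:99144196-99155077, minus strand), the receptor of Ccl21 and Ccl19, was highest in mature dendritic-like cells, at 1947 CPM in cold, 2365 CPM in CL and 1719 CPM in saline. The ratio there was 0.18 (0.10 to 0.26) for cold over saline and 0.46 (0.36 to 0.56) for CL over saline. B cell-like cells held 464 CPM in cold, 635 CPM in CL and 811 CPM in saline, and T cell-like cells held 213, 222 and 299.8 CPM. The ratio in B cell-like cells was -0.81 (-0.89 to -0.72) for cold over saline and -0.35 (-0.53 to -0.17) for CL over saline. Within the 2 B cell-like clusters without the cell cycle genes it was -0.74 and -0.50 for cold over saline and -0.36 and -0.45 for CL over saline. In T cell-like cells it was -0.49 for cold over saline, and -0.73 and -0.51 within the 2 clusters. For CL over saline the T cell-like ratio of -0.43 did not keep its sign in the larger cluster, which was at 0.26 (-0.21 to 0.70). Ccr7 thus had ratios above 0 in mature dendritic-like cells and below 0 in B cell-like cells in both comparisons.

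After thinning to 1000 UMIs a Ccr7 UMI was found in 74.7% of cold, 83.5% of CL and 71.2% of saline mature dendritic-like cells. In B cell-like cells the thinned shares were 38.1%, 50.5% and 56.1%, and in ASPC-like cells, which should lack it, 0.333%, 0.0934% and 0.651%. Type 1 dendritic-like cells held 95.3 CPM in cold, 12.9 CPM in CL and 34.7 CPM in saline. Of the 81 cold UMIs there 28 lay in 1 cell and 55 in 3 cells. The cold over saline ratio was 1.46 (0.93 to 2.001), and 1.08 without the 3 cells that held most Ccr7 in each library. Cxcr4 and Ccr7 were found in the same cell in 39.9% of cold, 33.3% of CL and 44.5% of saline B cell-like cells.

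**Figure D5:**
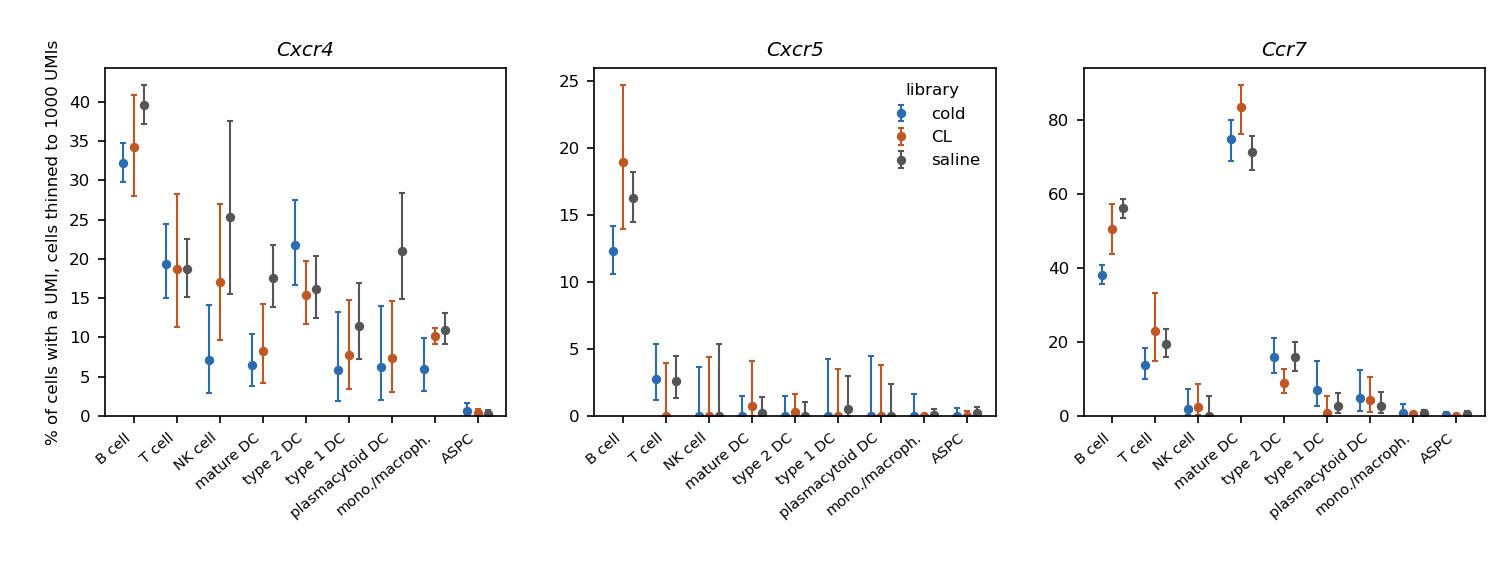
Share of cells (%) with a UMI of Cxcr4, Cxcr5 or Ccr7 by cell class in the cold, CL and saline libraries, with each cell thinned to 1000 UMIs and bars as exact 95% intervals. Ccr7 was found in 74.7% of cold, 83.5% of CL and 71.2% of saline mature dendritic-like cells, and in under 1% of ASPC-like cells.

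Other genes of these pathways were read in the ASPC-like cells for CL over saline, where 5.67% of all genes were past the fold higher and 2.52% lower. Of 5 measured homeostatic chemokines outside the 9 genes, Cxcl16 (77.3 against 24.9 CPM) and Ccl8 (241 against 86.7 CPM) were past the fold higher and none was lower, with a median ratio of 0.41 against 0.07 over all genes. Of 9 measured homing and scavenging receptors, Ccr2 (2.97) and Ccrl2 (1.04) were past the fold higher and Ackr2 (-1.56), Ackr4 (-2.61) and Gpr183 (-3.73) lower. Ccr2, Ccrl2, Ackr4 and Gpr183 were under 20 CPM in both libraries. Of 18 measured genes of Cxcl12 signalling and inactivation, Mif, an alternative ligand of Cxcr4, was past the fold higher at 169 against 66.8 CPM, and the median ratio was 0.15. Dpp4, the peptidase that trims Cxcl12 and also a marker of interstitial progenitors, was at 222 against 293 CPM.

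Of 9 measured genes known from the stromal niche of the bone marrow, Vcam1 was past the fold higher in CL over saline (1.10) and Bmp4 (-1.72, at 2.79 against 9.21 CPM) and Igfbp5 (-1.17) were lower, beside the same 5.67% and 2.52% of all genes. Igfbp5 was past the fold in none of the named subclasses, at -0.58 in committed preadipocyte-like, -0.45 in F3-marked and -0.92 in interstitial progenitor-like cells. Vcam1 was at 0.96, 1.05 and 1.24 there. Of 14 lymphoid tissue organising genes 11 had ratios above 0, of which Bst1, a stromal surface enzyme, was at 3.41 (5.44 against 0.512 CPM) and Vcam1 was also past the fold, and Ltb (1.54 against 4.09 CPM) was past the fold lower. The median of that list was 0.45. Of 7 measured genes of naive lymphocyte trafficking, Satb1 and Itgb7 were past the fold lower. For cold over saline, Clu at 1.16 was past the fold in the organising list, with 1.88% of all genes past the fold higher in ASPC-like cells and 2.36% lower.

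In B cell-like cells the naive lymphocyte trafficking genes had 7 of 9 cold over saline ratios below 0, and Klf2 (-1.10) and Lef1 (-2.001, at 1.29 against 5.14 CPM) were past the fold lower, with 3.14% of all genes lower and 4.88% higher. In T cell-like cells 9 of 11 were below 0, and Klf2 (-1.29) was past the fold lower, with 3.4% of all genes lower and 4.29% higher. The list medians were -0.30 in B cell-like and -0.56 in T cell-like cells, beside -0.01 and 0.10 over all genes. Within the 2 B cell-like clusters without the cell cycle genes 5 of 8 and 4 of 8 were below 0 and none was past the fold. Within the T cell-like cluster with Ctla4, Ikzf2 and Mki67 among its leading genes 6 of 11 were below 0, and within the other 7 of 11, with medians of -0.02 and -0.24.

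Klf2 is a transcription factor of quiescent lymphocytes and of endothelium under flow. Its cold over saline ratio was -0.86 and -0.92 within the 2 B cell-like clusters without the cell cycle genes. In the T cell-like class it was 0.0017 within the cluster with Ctla4 and Mki67 and -1.92 within the other. Outside these classes Klf2 was at -2.62 in plasmacytoid dendritic-like, -2.11 in NK cell-like, -0.96 in type 1 dendritic-like and -0.83 in mature dendritic-like cells. It was at -0.79 in endothelial-like, -0.52 in ASPC-like and -0.51 in type 2 dendritic-like cells. Monocyte/macrophage-like cells differed, at 0.09 (-0.07 to 0.26). For CL over saline Klf2 was at -1.95 in plasmacytoid dendritic-like, -2.32 in NK cell-like and -1.18 in type 1 dendritic-like cells. It was at -0.88 in type 2 dendritic-like, -0.63 in mature dendritic-like, -0.60 in T cell-like and -0.56 in endothelial-like cells. B cell-like cells, at -0.05, and monocyte/macrophage-like cells, at 0.0081, did not follow. In the classes that did, saline had the highest level, so the lower ratios were not particular to cold.

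In endothelial-like cells 9 of 10 organising genes had CL over saline ratios below 0, 6 of them past the fold, where 8.73% of all genes were past the fold lower and 3.24% higher. Venous-like and lymphatic-like cells were 6 and 2 in CL, against 34 and 39 in saline. In the endothelial-like cells outside the arterial-like, venous-like and lymphatic-like clusters 3 of 5 measured organising genes were below 0 and none was past the fold. The scavenging receptors Ackr1, known from venules, and Ackr4, known from lymphatic vessels, were at 10.7, 6.29 and 37.7 CPM and at 10.7, 0 and 60.9 CPM in cold, CL and saline endothelial-like cells, in which venous-like and lymphatic-like cells were also most frequent in saline.

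Across 36 points, the 12 classes in each of 3 libraries, the gene whose level was most like that of Cxcl12 was Igfbp7 (Pearson r = 0.968 on log2(CPM + 10)), followed by Cav1 (0.964). For Ackr3 it was Prss23 (0.973), for Cxcl14 Adcyap1r1 (0.990), for Cxcl13 Arsi (0.951), for Cxcr5 Pax5 (0.961), for Cxcr4 Hmha1 (0.953) and for Ccr7 H2-Eb2 (0.894). The points share libraries, and the values describe the order of classes and carry no test. Ccl21a and Ccl19 stayed under 50 CPM in all these classes and were not compared.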

How the data were processed

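Unnormalized UMI counts were deposited by the authors, made with Cell Ranger 3.0.2, per the file headers, on mm10, per the submitters' processing notes. Not given in the sources used here are aligner settings, annotation, cell calling, the number, sex and age of the animals behind a library, and any injection of the cold mice. Coordinates are those of GENCODE M21, joined on the Ensembl ID.

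Filters left 3862 cold, 6705 CL and 6271 saline barcodes. Scrublet, as in scanpy 1.11.5 (automatic limits of 0.373, 0.323 and 0.292), took out 4 cold, 64 CL and 86 saline doublets. At 0.104% of cold cells it left doublets in that library. From log values scaled to 10000 UMIs per cell, with 2000 variable genes, 30 components and 15 neighbours, Leiden clusters (resolution 1, seed 1) were made over the libraries together, without the chemokine and receptor genes. Clusters were named for the class whose marker genes had the highest mean log2 fold, if at least 3 markers passed. No other class could have more of its markers among the leading genes of the cluster. On a tie, the mean had to be at least 1.5 times that of the next class. These rules left unnamed the cluster marked by Chil3 and Hp, whose best set was the monocyte markers. The subcluster led by Clu and Cxcl13 stayed unnamed by them too. Endothelial-like cells were clustered again (resolution 0.5), and related clusters were joined after they were seen.

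CPM have exact Poisson intervals, shares exact Clopper-Pearson intervals and ratios exact conditional binomial intervals (scipy 1.17.1). The ratios, their intervals and the fold call were tried on simulated Poisson counts, the same error that the intervals assume. Those counts hold no spread between cells or animals. The filters, doublet calls, clustering, class names and thinning were not tested in this way. All 9 genes were reported in every class, other genes came from 6 lists, up to 4 examples each or those past the fold, with Ackr1, Ackr4, Dpp4 and cell markers picked after their values were seen. The members, lists and tests were chosen with earlier results of these data known. Free RNA was not subtracted. Alternatives varied the filters, doublet limits, clustering, scaling, UMI minimum and cells, and 3 were added after seeing the data.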

Additional observations from a re-analysis of the deposited data

Results flagged for a closer look

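Ccr7 had cold over saline log2 ratios of opposite sign in different cell classes, 1.46 in type 1 dendritic-like cells and -2.32 in endothelial-like cells outside the arterial-like, venous-like and lymphatic-like clusters. The endothelial-like level was 8.17 CPM in cold and 40.8 CPM in saline, where 11 of 18 UMIs lay in 1 cell. Cxcl12 had CL over saline ratios of 1.06 in committed preadipocyte-like cells and -2.71 in monocyte/macrophage-like cells. With 1 library per group, neither difference between classes was tested.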

How the results depend on the processing

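The alternatives were run on ratios of chosen pairs of a gene and a class. Of these, 21 ratios were 1 or more in size, and all 201 of their values kept their sign. For the 60 ratios of at least 0.25 in size, 580 of 587 values did. Other ratios past the fold, such as Cxcr5 in T cell-like and Cxcr4 in type 1 dendritic-like cells, were not varied singly. For Cxcl12 in ASPC-like cells, CL over saline was 0.89 with at most 5% mitochondrial UMIs, 0.43 with each cell counting the same, 0.74 in the largest cluster and 1.02 without the unnamed cluster, and CL over cold was 0.38 (at most 5%), 0.38 (largest cluster) and 0.62 (without the unnamed cluster). For Cxcl12 in endothelial-like cells, cold over saline was 1.06 (at most 5%). CL over saline was 1.67 with at least 1000 genes, 1.22 with each cell counting the same and 1.03 in the largest cluster, and CL over cold was 0.43 (at most 5%), 0.67 (at least 1000 genes), 0.41 (cells counting the same) and 0.0099 (largest cluster). For Cxcl13 in ASPC-like cells, CL over saline was 1.46 with a common doublet limit of 0.2 and 1.25 in the largest cluster, and CL over cold 1.03 and 0.86. Of the member ratios past the fold, cold over saline gave 7 with at most 5% mitochondrial UMIs, 7 with at least 1000 genes, 18 with doublets kept and 40 without a UMI minimum, in place of 11. CL over saline gave 20 with doublets kept and 39 without a minimum, in place of 13, and CL over cold 40 without a minimum, in place of 7. Fewer cells or, with no minimum, ratios of a few UMIs enter these counts, and other causes were not tested. No library could be left out and no paired analysis was possible because each group has 1 library. Depth limits the genes under about 20 CPM, and no value shows the spread between animals.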
